A study of Bubalus bubalis with 8 samples.

Results

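Transcripts for the nuclear-encoded subunits of oxidative phosphorylation were followed in buffalo mammary epithelial cells (MECs) before and after heat stress. The genes were those whose name on the array begins with NDUFA, NDUFB, NDUFC, NDUFS, NDUFV, SDHA, SDHB, SDHC, SDHD, UQCR, COX4, COX5, COX6, COX7, COX8 or ATP5. Such names numbered 91 of the 24839 gene names on the array and were read by 211 probes. Of these probes 21 lay in a rectangle that was dark on the array of unstressed cells, and 29 others were not well above background on any array. The remaining 161 probes read 77 genes, and 72 of these encode subunits: 33 of 39 names for complex I, 4 of 4 for complex II, 8 of 8 for complex III, 12 of 16 for complex IV and 15 of 15 for complex V. The other 5 genes (ATP5S, ATP5SL, COX4NB, NDUFAF3 and SDHAF2) share a prefix, and NDUFAF3 and SDHAF2 are assembly factors.

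Primary MECs from buffalo mammary gland, at passage 10, were grown at 37 °C on collagen. One plate stayed at 37 °C as the unstressed control (CTR), and the other was held at 42 °C for 1 h and returned to 37 °C, so all heat stressed cells shared the same treatment and differed in the time of recovery. Cells were harvested at 7 time points of recovery, early ones at 30 min, 2 h and 4 h, then every 4 h from 8 h to 16 h, and last at 24 h, and each condition was hybridised to 1 bovine array with 1 colour. Hence no condition has a replicate, no p-value is given, and precision is limited by having 1 array each. Levels listed over all arrays below run in the order of time.

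Oxidative phosphorylation takes place in the inner mitochondrial membrane. Complexes I and II pass electrons from NADH and succinate to ubiquinone, complex III passes them on to cytochrome c, and complex IV (cytochrome c oxidase) hands them to oxygen. Protons pumped on the way drive complex V, the ATP synthase. Most subunits are encoded in the nucleus and imported, and a few core subunits of complexes I, III, IV and V are encoded in mitochondrial DNA.

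A level below is the log2 signal of a probe minus the 75th percentile of its array, and a change is the level at a time point minus the level in CTR. A change is given only where the probe was well above background on both arrays, and each gene is read from its main probe, the one detected on most arrays. The 8 arrays came from 2 slides: slide 1 held CTR, 8 h, 12 h and 24 h, and slide 2 held 30 min, 2 h, 4 h and 16 h. For slide 2 the slide and the time after stress cannot be told apart in a comparison with CTR. Several markers of other cells moved with the slide. Among milk protein genes, 6 of 6 were well above background on every slide 2 array, with a summed linear level of 68.1 to 1623, against 1 of 6 on every slide 1 array, with 3.98 to 4.93. The leukocyte list summed to 17.5 or more on slide 2 and to 11.2 or less on slide 1. The adipocyte list, of which 1 gene was kept, was detected only on slide 2, at 41.8 to 52.7. The sum of the fibroblast list, most of it from VIM, went the other way, at 52.5 to 118 on slide 2 and 125 to 186 on slide 1. The genes of this list did not move together. PDGFRA, LUM and THY1 were detected only at 16 h and COL1A2 only at 4 h and 16 h, all on slide 2. At 16 h 8 of its 8 kept genes were detected, against 4 in CTR. The basal list summed to 458 in CTR, to 124 to 237 on the 3 earliest arrays and to 255 to 311 on the other 4. The epithelial list, keratins and adhesion genes, summed to between 83.9 and 137 on the 3 earliest arrays and to between 265 and 329 on the other 5. Their part in the changes below was not tested, and in such bulk RNA fewer cells of a type and less RNA per cell cannot be told apart.

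Most oxidative phosphorylation genes kept their level within 2-fold of CTR at all time points. Of the 75 genes measured at 1 or more time points, 6 (8.00%) passed 2-fold at 1 or more of them, beside 48.1% of all genes. These were NDUFS1, NDUFB4, COX6B2, ATP5J and ATP5J2, which passed it downward, and ATP5G1, which passed it upward. Of the 74 genes measured at all 7 time points, 68 (91.9%) stayed under 2-fold throughout, beside 55.3% of the 5302 genes measured at all 7 time points. The members are bright on these arrays, with a median level of 4.77 in CTR against 2.67 for those 5302 genes. Among the 1759 of those genes with a CTR level at or above 3.44, the lower quartile of the members, 57.9% stayed under 2-fold throughout, beside 94.8% of the 58 members in that range.

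The same held on each slide. At the 3 time points of slide 1, 73 of the 74 genes (98.6%) stayed under 2-fold, beside 88.9% of all genes. At the 4 time points of slide 2, 69 (93.2%) did so, beside 60.1% of all genes. These are counts over genes of 1 array each and carry no test.

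**Figure D1:**
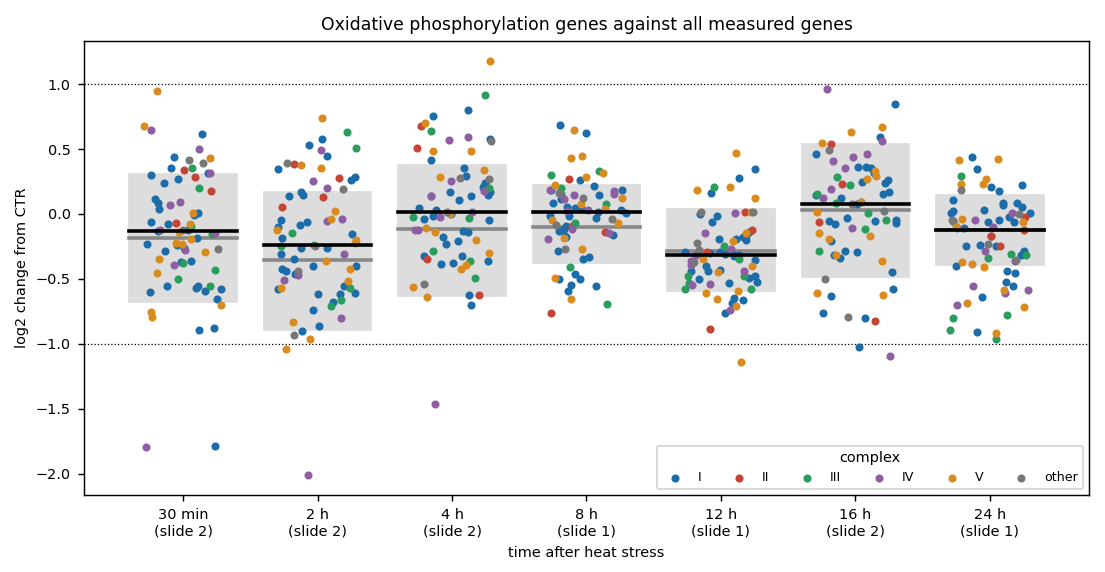
Log2 change from CTR (y axis) of each oxidative phosphorylation gene (points, coloured by complex) at each time after heat stress (x axis, with the slide). The black line is the median of these genes, the grey line and box are the median and quartiles of all measured genes, and the dotted lines mark 2-fold. Most points lie between the dotted lines, and COX6B2 lies furthest below at 30 min, 2 h and 4 h.

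The median change of the group stayed close to that of all genes. It was -0.13, -0.24, 0.01, 0.02, -0.32, 0.08 and -0.12 in the order of time, where all genes had medians of -0.19, -0.36, -0.12, -0.10, -0.29, 0.03 and -0.12. The difference between both medians was at most 0.13, at 4 h. The error of a single change from repeated spots of 1 probe was 0.28 to 0.54 over the 6 time points other than 30 min. That error belongs to 1 probe within an array, not to a median over genes or to a difference between arrays. It therefore cannot judge the size of the difference between medians. With normexp background correction the sign turned at 2 h and 12 h: the medians were 0.44, 0.67 and 0.11 at 2 h, 4 h and 12 h, and those of all genes 0.14, 0.36 and 0.06. As measured without it, at 12 h 61 of 75 genes (81.3%) were below CTR, beside 72.7% of all genes. At 4 h, 8 h and 16 h, 35, 36 and 33 of 75 were below CTR (46.7%, 48.0% and 44.0%), beside 56.3%, 58.8% and 48.1% of all genes.

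The 2-fold counts were small at each time point in the values used here. They depended on the processing: normexp gave 11 genes higher at 2 h and 15 at 4 h, and scanner intensities gave 30 at 30 min. All genes then had medians of 0.14 at 2 h and 0.36 at 4 h with normexp, and 2.48 at 30 min with scanner intensities. The share of all genes at 2-fold under these settings is not given here, so these counts are not read as a result about the members. At 30 min, 0 genes were higher and 2 lower of 74 measured, where 8.13% of all genes were higher and 13.7% lower. At 2 h, 0 were higher and 2 lower of 75, where 6.02% of all genes were higher and 21.2% lower. At 4 h, 1 was higher and 1 lower, where the background was 6.56% and 13.2%.

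At 8 h no gene passed 2-fold in either direction, where 2.46% of all genes were higher and 2.58% lower. At 12 h, 0 were higher and 1 lower, beside 0.815% and 6.25% of all genes. At 16 h, 0 were higher and 2 lower, beside 10.4% and 10.2%. At 24 h again no gene passed 2-fold, where 0.732% of all genes were higher and 3.39% lower.

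Within slide 2, with 16 h in the place of CTR, the medians were -0.24, -0.26 and -0.02 from 30 min to 4 h, and those of all genes were -0.25, -0.36 and -0.11. At 30 min, 3 genes were 2-fold above 16 h (SDHD by 1.16, COX7A1 by 1.11 and NDUFS8 by 1.06 on the log2 scale) and 1 was below (NDUFS1, -1.86), where 8.28% and 13.4% of all genes were. At 2 h, 0 were above and 1 was below (COX8A, -1.15), beside 5.88% and 18.6% of all genes. At 4 h none was above or below, beside 3.76% and 10.1%. The 16 h array was dim around the NDUFS8 and SDHD spots, by 1.00 and 0.33, and bright around COX8A, by 0.35. With such local shifts subtracted (described with the 6 genes that passed 2-fold) NDUFS8 had -0.09, SDHD 0.89, COX7A1 1.65 and NDUFS1 -1.09 at 30 min. COX8A had -0.63 and COX7A1 1.08 at 2 h. So COX7A1 and NDUFS1 still passed 2-fold from 16 h, and NDUFS8, SDHD and COX8A did not. Other genes passed it only after the subtraction. These were COX6B2 (-1.65), ATP5G2 (-1.07) and NDUFAF3 (-1.01) at 30 min. At 2 h they were COX6B2 (-1.99), ATP5G2 (-1.16), COX6A1 (-1.09) and NDUFAF3 (-1.02), and at 4 h COX6B2 (-1.43) and ATP5G1 (1.07). The share of all genes after this subtraction is not given here.

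**Figure D2:**
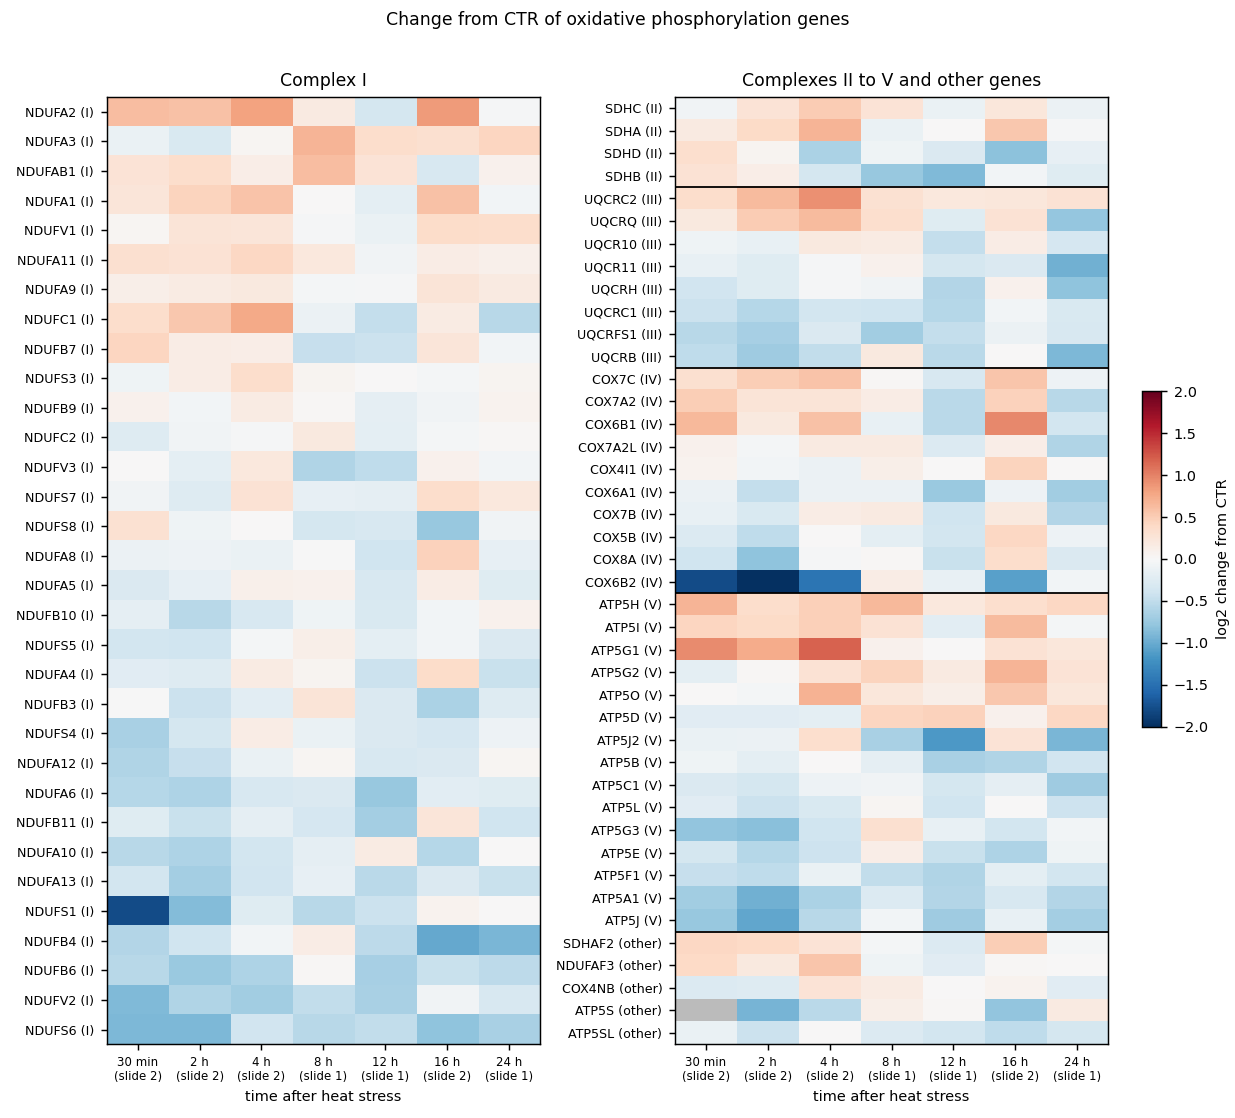
Log2 change from CTR (colour, red higher and blue lower) of 74 of the 75 measured genes (rows, complex in parentheses) at each time after heat stress (columns, with the slide), with the genes of each complex ordered by their median change. The grey cell was not well above background. The darkest blue cells are COX6B2 on the slide 2 arrays and NDUFS1 at 30 min.

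Complex I, the NADH dehydrogenase, had medians between -0.32 at 12 h and 0.03 at 4 h over its 33 genes. Its core includes the subunits that bind NADH and carry the flavin and iron-sulphur clusters, among them NDUFV1, NDUFV2, NDUFS1, NDUFS7 and NDUFS8. NDUFS3 belongs to the core too. NDUFS1, the largest iron-sulphur subunit, had levels of 2.75 in CTR, 0.96, 1.89 and 2.52 from 30 min to 4 h, and 2.20, 2.31, 2.83 and 2.76 from 8 h to 24 h. It was thus lowest at 30 min, 3.45-fold below CTR, intermediate at 2 h, and close to CTR at 16 h and 24 h. The second NDUFS1 probe was not detected at 30 min, so it gives no value there, and its change was -0.12 at 2 h and 1.08 at 24 h.

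NDUFV2, which carries an iron-sulphur cluster next to the flavin, was below CTR at all 7 time points in both of its probes. Its main probe had changes from -0.88 at 30 min to -0.07 at 16 h, and the second probe from -2.04 at 16 h to -0.35 at 24 h. So its direction was shared while the size differed by probe. With the local shift of each array subtracted, as described for the 6 genes below, the main probe's changes lay between -0.27 and -0.01. The main probe of NDUFV1, the flavin-binding subunit, lay between -0.14 and 0.37. Those of NDUFS3 and NDUFS7 lay between -0.26 and 0.36 at all time points. Over all measured probes NDUFV1 ranged from -0.78 to 0.51, NDUFS3 from -0.42 to 0.46 and NDUFS7 from -0.62 to 0.88.

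NDUFS6, an accessory subunit of the same arm, was below CTR at all time points in its main probe, from -0.90 at 2 h to -0.38 at 4 h. Its second probe was at 0.06 at 2 h and 0.18 at 4 h, so the probes did not share a direction there. NDUFA2, another accessory subunit, was above CTR at the 4 slide 2 time points, by 0.61, 0.58, 0.80 and 0.84 in the order of time, and between -0.36 and 0.19 on slide 1. NDUFC1 was also above CTR on slide 2, by 0.35, 0.53, 0.76 and 0.17, and had -0.47 at 12 h and -0.56 at 24 h. With local shifts subtracted NDUFC1 was at -0.03 at 16 h.

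NDUFB4, a small membrane arm subunit, had levels of 3.19 in CTR, 2.61, 2.79 and 3.14 from 30 min to 4 h, and 3.34, 2.66, 2.16 and 2.28 from 8 h to 24 h. It was lowest at 16 h and 24 h, by 2.03-fold and 1.88-fold. Around its spot the 16 h array was dim: bright neighbouring probes there were lower by 0.87 than on the other arrays, and with such local shifts subtracted the change at 16 h was -0.14. A second probe rose to 1.72 at 30 min and 1.28 at 2 h, so the probes of NDUFB4 went in opposite directions.

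Complex II, succinate dehydrogenase, consists of 4 subunits. Its medians were 0.23 at 30 min and 0.21 at 2 h, where all genes had negative medians, and -0.21 at 12 h. SDHA, the flavoprotein that oxidises succinate, had levels of 5.36 in CTR, 5.53, 5.74 and 6.03 from 30 min to 4 h, and 5.22, 5.37, 5.90 and 5.34 from 8 h to 24 h. In this main probe SDHA was thus above CTR on the slide 2 arrays, by up to 0.68 at 4 h, and within 0.14 of CTR on slide 1. Over its 4 probes 8 of 24 values were below CTR, down to -1.11, and the median at 2 h was -0.04. SDHB, the iron-sulphur subunit, lay at -0.76 at 8 h and -0.88 at 12 h, or at -0.17 and -0.31 with local shifts subtracted. SDHC and SDHD, the membrane anchors, differed at 4 h, with 0.51 and -0.63, and all 4 genes stayed under 2-fold throughout.

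Complex III, the cytochrome bc1 complex, had a median of -0.56 at 24 h, the lowest of any complex at a time point as measured. Of its 8 genes 7 were below CTR there, beside 61.8% of all genes. The small subunits accounted for the low end: UQCR11 had -0.97, UQCRB -0.89, UQCRH -0.80 and UQCRQ -0.78 at 24 h. At 8 h, on the same slide, these genes had 0.08, 0.20, -0.07 and 0.33, and the median of the complex was 0.12. The 24 h array was dim around the UQCR11 spot, by 0.70. With local shifts subtracted the median at 24 h was -0.25, still with 7 of 8 genes below CTR but no longer the lowest, which was -0.41 in complex V at 12 h. UQCR11 then had -0.35, UQCRB -0.70, UQCRH -0.68 and UQCRQ -0.91.

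Of the larger subunits, the core protein UQCRC1 was below CTR throughout, from -0.58 at 12 h to -0.05 at 16 h, and the Rieske protein UQCRFS1 from -0.70 at 8 h to -0.12 at 16 h. With local shifts subtracted both turned at some times: UQCRC1 was at 0.69 at 16 h, and UQCRFS1 at 0.20 at 4 h and 0.10 at 12 h. UQCRC2, the other core protein, was above CTR at all 7 time points in its main probe, up to 0.92 at 4 h. The 3 other UQCRC2 probes were below CTR at most time points, for example at -0.28, -0.76 and -1.06 at 2 h. A direction for UQCRC2 therefore depends on the probe, and with local shifts subtracted the main probe was below CTR at 8 h, 12 h and 24 h, at -0.23, -0.38 and -0.01.

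**Figure D3:**
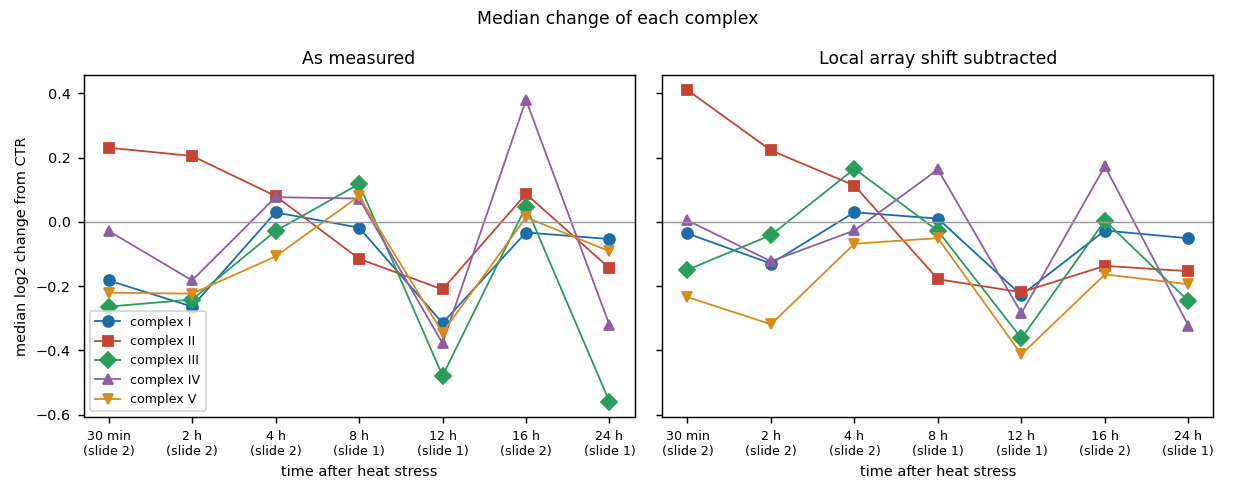
Median log2 change from CTR (y axis) of the genes of complexes I to V at each time after heat stress (x axis, with the slide), as measured (left) and with the local shift of each array position subtracted (right). Complex III falls to -0.56 at 24 h on the left and to -0.25 on the right, and complex IV is highest at 16 h in both.

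Complex IV was measured in 10 of its 12 genes. Its medians ranged from -0.38 at 12 h to 0.38 at 16 h. COX6B2 moved most. It encodes a form of subunit VIb best known from testis, where COX6B1 is the general form. COX6B2 levels were 2.34 in CTR, 2.49, 2.19 and 2.29 at 8 h, 12 h and 24 h on slide 1, and 0.54, 0.33, 0.87 and 1.25 at 30 min, 2 h, 4 h and 16 h on slide 2. As measured, all slide 2 levels lay below all slide 1 levels. How many of all genes separate in this way was not counted.

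Against CTR this is a level 3.47-fold lower at 30 min, 4.03-fold, 2.76-fold and 2.13-fold at 2 h, 4 h and 16 h. The 16 h array was dim around this spot, by 0.86, and with local shifts subtracted the change at 16 h was -0.17, while those at 30 min, 2 h and 4 h were -1.82, -2.16 and -1.60. Within slide 2 the levels at 30 min, 2 h and 4 h were -0.70, -0.92 and -0.37 from 16 h. With local shifts subtracted they were -1.65, -1.99 and -1.43 from it. The second COX6B2 probe was well above background on 1 array, which gives no check. COX6B1 itself was above CTR on slide 2, by 0.65, 0.20, 0.59 and 0.96 in the order of time, and below it at 8 h, 12 h and 24 h, at -0.14, -0.55 and -0.36.

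The remaining general subunits stayed under 2-fold. In their main probes COX7C, COX7A2 and COX6B1 were above CTR on all 4 slide 2 arrays. COX6A1 was below CTR on all arrays, at -0.74 at 12 h and -0.70 at 24 h. With local shifts subtracted COX6A1 was at 0.01, 0.12 and 0.65 at 4 h, 8 h and 16 h, and COX7A2 at -0.04 at 2 h and -0.03 at 16 h. The main probes of COX7C and COX6B1 then stayed above CTR on slide 2. Over the 2 measured COX7C probes the medians were -0.14, -0.08, 0.03 and 0.26 at 30 min, 2 h, 4 h and 16 h. The second COX7C probe was thus below CTR at 30 min and 2 h. Over the 3 COX7A2 probes the median was -0.08 at 16 h. The 2 other COX6B1 probes were at -0.19 and -0.50 at 16 h, so its direction there differs by probe. COX8A had -0.80 at 2 h and 0.35 at 16 h. At 24 h, 9 of 10 genes lay below CTR, as they did at 12 h, where 61.8% and 72.7% of all genes did. With local shifts subtracted 7 of 10 did at 24 h and 9 of 10 at 12 h.

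COX7A1, the form of subunit VIIa found in heart and skeletal muscle, stayed under the detection limit in CTR and on all other slide 1 arrays. It was detected at 30 min, 2 h and 16 h, at levels of 1.44, 0.89 and 0.33, which puts the levels at 2 h and 16 h at least 2.12-fold and 1.44-fold higher than in CTR, given the detection limit of that array. Its second probe was detected at 30 min and 2 h too, at 1.73 and 1.22. COX8B, another muscle form, was detected only at 12 h. COX4I2, COX6A2, COX7B2 and COX5A had no usable probe: the first 3 were dim on all arrays, and COX5A had 1 dim probe and 1 in the dark rectangle.

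In complex V, the medians lay between -0.34 at 12 h and 0.08 at 8 h. ATP5A1 and ATP5B form the catalytic head of the ATP synthase. ATP5A1 had levels of 7.11 in CTR, 6.41, 6.15 and 6.47 from 30 min to 4 h, and 6.84, 6.52, 6.80 and 6.52 from 8 h to 24 h. CTR was the highest of the 8 arrays, and this held in all 5 ATP5A1 probes: their 34 measured changes were all negative, from -1.74 to -0.16. With local shifts subtracted the main probe still had negative changes, from -0.66 to -0.16. In its main probe the partner ATP5B had -0.08, -0.20 and 0.00 at the first 3 time points, and -0.65 at 12 h and -0.61 at 16 h. Over the 5 ATP5B probes 31 of 33 values were below CTR, down to -1.91. Their medians were -0.36, -0.45 and -0.25 at 30 min, 2 h and 4 h, so the early size depends on the probe.

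ATP5C1, the rotating shaft of the head, was likewise below CTR in all 21 values of its 3 probes, from -1.39 to -0.07. ATP5H, a stalk subunit, was above CTR in all 21 values of its 3 probes, from 0.03 to 0.94, though the CTR array was dim around its main probe by 0.52. With local shifts subtracted the main probe lay between -0.41 and 0.04, below CTR at 4 of 7 time points. In all, 45 genes had 2 or more measured probes. Of them 3 (ATP5A1, ATP5C1 and NDUFV2) were below CTR in every probe and time measured, while 1 (ATP5H) was above. The same count over all genes was not made. ATP5J, another stalk subunit read by 1 probe, had levels of 4.94 in CTR, 4.19, 3.90 and 4.38 from 30 min to 4 h, and 4.89, 4.23, 4.79 and 4.25 from 8 h to 24 h. It was lowest at 2 h, 2.06-fold below CTR, and with local shifts subtracted its change there was -0.46.

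ATP5J2, a small membrane subunit, had levels of 3.95 in CTR, 3.81, 3.83 and 4.29 from 30 min to 4 h, and 3.30, 2.81, 4.22 and 3.03 from 8 h to 24 h. In this main probe the 3 heat stressed arrays of slide 1 were the lowest, with 12 h at 2.21-fold below CTR. The 24 h array was dim by 0.98 around this spot, and with local shifts subtracted the change was -0.76 at 12 h and 0.26 at 24 h. The second ATP5J2 probe had -0.14 at 12 h and -2.36 at 16 h, where the main probe had 0.27, so the probes did not share this pattern.

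The ring of complex V through which protons pass is built from subunit c, which 3 genes encode as the same mature protein. Before local shifts were subtracted, ATP5G1 was the only member with a measured rise above 2-fold, while COX7A1, undetected in CTR, has only a bound. The ATP5G1 levels were 4.80 in CTR, 5.74, 5.54 and 5.97 from 30 min to 4 h, and 4.88, 4.81, 5.09 and 5.03 from 8 h to 24 h. It was thus highest at 4 h, 2.26-fold above CTR, and within 0.29 of CTR from 8 h on. The 2 other ATP5G1 probes had 0.98 and 0.70 at 4 h, and 0.78 and 0.35 at 30 min.

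The other 2 genes went other ways. ATP5G3 had -0.79, -0.84 and -0.39 from 30 min to 4 h, and between -0.36 and 0.31 later. The CTR array was dim around its spot, by 0.50, and with local shifts subtracted ATP5G3 had -1.12, -1.18 and -1.02 from 30 min to 4 h, and -0.38, -0.88, -1.11 and -0.57 from 8 h to 24 h. ATP5G2 lay at -0.19 at 30 min and rose no further than 0.67, at 16 h. So at 30 min and 2 h, ATP5G1 and ATP5G3 lay on opposite sides of CTR. This difference between both genes was not tested.

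**Figure D4:**
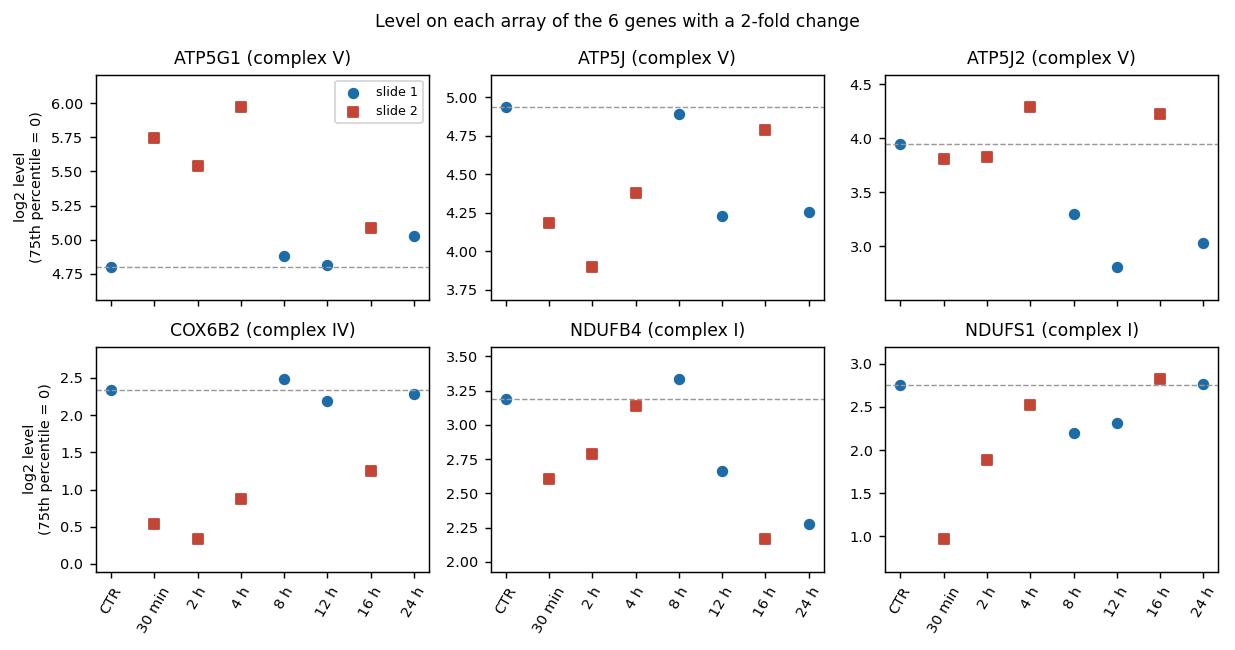
Level (log2, relative to the 75th percentile of each array, y axis) of the 6 genes that passed 2-fold, on each of the 8 arrays (x axis), with slide 1 as blue circles and slide 2 as red squares; the dashed line is the CTR level. As measured, COX6B2 separates by slide, from 0.33 to 1.25 on slide 2 and from 2.19 to 2.49 on slide 1. With local shifts subtracted its change from CTR at 16 h is -0.17.

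The 6 genes were also read after subtracting from each value the median shift of bright probes within 10 spots on that array. Then 6 genes passed 2-fold again, but only 3 of them, COX6B2, NDUFS1 and ATP5G1, were the same, beside ATP5G3, ATP5S and NDUFAF3. These 6 make up 8.00% of the members, beside 39.2% of all genes after the same subtraction. NDUFS1 had -1.25 at 30 min and ATP5G1 1.15 at 4 h. NDUFB4, ATP5J and ATP5J2 did not pass 2-fold after this subtraction.

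Probes of 1 gene could differ by far more than the group as a whole moved. Over the members, the SD between probes of 1 gene was 0.53, 0.58, 0.49, 0.30, 0.32, 0.57 and 0.33 in the order of time. The probes are 60 bases long and were designed on the cattle genome (HGSC Btau_3.1), so mismatches to buffalo are possible and were not examined. A pair of genes shows the extent, and their probe sequences are given because neighbouring stretches of 1 transcript gave different readings.

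COX4I1, the general form of subunit IV, is read by 4 probes on the plus strand of chromosome 18. Those at chr18:10976284-10978263 (which spans a gap in the genome), chr18:10982833-10982892 and chr18:10983800-10983859 are shown whole. Of the probe at chr18:10983911-10983969, a window of 30 bases is shown, with AATAAA, the letters of the polyadenylation signal, in capitals. Between it and the main probe lie 51 bases.
A_73_P066799: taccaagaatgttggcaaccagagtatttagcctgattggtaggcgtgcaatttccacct
A_73_P107884: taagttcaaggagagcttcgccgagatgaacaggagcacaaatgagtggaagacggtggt
A_73_P066801 (main): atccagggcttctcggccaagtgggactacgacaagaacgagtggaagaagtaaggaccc
A_73_116537: agcaccagtgctAATAAAcgcgcagttcac

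The main probe had levels of 6.31 in CTR, 6.38, 6.25 and 6.18 from 30 min to 4 h, and 6.42, 6.31, 6.75 and 6.31 from 8 h to 24 h, so its largest change was 0.44, at 16 h. The probe with AATAAA had 3.40 in CTR, 5.22, 5.40 and 1.87 from 30 min to 4 h, and 2.98, 2.58, 2.63 and 2.59 from 8 h to 24 h. It was thus 1.82 and 1.99 above CTR at 30 min and 2 h and 1.54 below it at 4 h, while the main probe stayed flat on these 3 arrays of the same slide. The probe at 10982833 had -1.19 at 4 h, and the one at 10976284 lay between -0.51 and 0.02.

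UQCR11 has 2 probes on the minus strand, at chr7:42995588-42995647 (main) and chr7:42995563-42995622, which share 35 bases. The 25 bases that each holds alone are shown, since only these can set their readings apart by sequence.
A_73_P049821 (main): tttcctcttttggtggaaataactt
A_73_103839: aaacctgcccgcctgcacgtgctca

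The main probe had levels of 4.81 in CTR, 4.66, 4.57 and 4.79 at 30 min, 2 h and 4 h. The probe shifted downstream had -0.16 in CTR, 2.56, 2.89 and -0.59 from 30 min to 4 h, and was below detection at 8 h, 16 h and 24 h. Its changes of 2.72 and 3.05 at 30 min and 2 h stood beside -0.15 and -0.24 in the main probe. As in COX4I1, the probe nearer the end of the transcript was high at 30 min and 2 h and not at 4 h, and why was not tested.

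**Figure D5:**
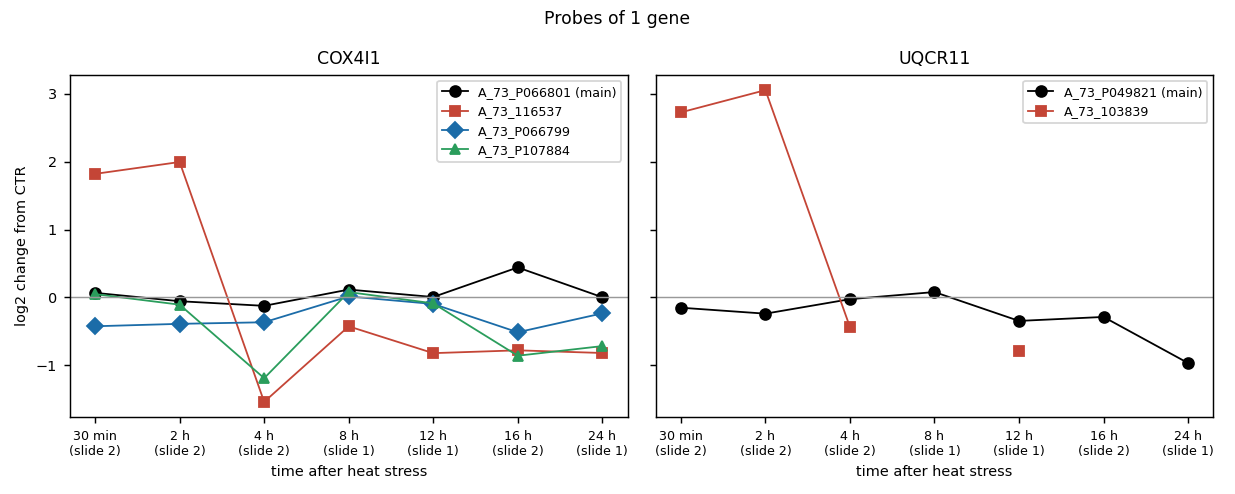
Log2 change from CTR (y axis) of each probe of COX4I1 (left) and UQCR11 (right) at each time after heat stress (x axis, with the slide), with the main probe as black circles. Missing points were not well above background. One probe of each gene rises at 30 min and 2 h, to 1.99 and 3.05, while the main probe stays near 0.

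AATAAA, searched on the strand of the probe as written, was held by 46 of the 211 member probes (21.8%) and by 9.35% of the 43653 probes on the array. Member probes with it had a median change of -0.06 at 30 min and -0.09 at 2 h, over 36 and 37 probes, against -0.15 and -0.33 over 105 and 115 probes without it. At 24 h they were at -0.36, against -0.12, so the order turned. On the whole array the medians with it were -0.10, -0.23, 0.03 and -0.16 at 30 min, 2 h, 4 h and 24 h, where those without it were -0.25, -0.45, -0.21 and -0.12. These are descriptions with no test.

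The subunits encoded in mitochondrial DNA, which join the same complexes, behaved otherwise on these arrays. Of 11 kept genes 7 were measured, and all 7 passed 2-fold at 1 or more time points, beside 48.1% of all genes. Their median was 0.83, 0.28, -1.14, -0.61, -0.90, -1.04 and -0.45 in the order of time. ATP6 of complex V had 4.75, 4.46 and -1.89 from 30 min to 4 h, and ND4 of complex I had 1.91, 2.09 and -1.03. Of the 7, ND4, COX2, CYTB and ATP6 were above CTR at 30 min and 2 h. COX3 of complex IV was not, with -0.66, -0.64 and -1.24, nor was ND5 of complex I, with -0.09 and -0.37 at 30 min and 2 h, and ATP8 of complex V had -1.65 at 2 h.

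Nuclear genes around the complexes are given as counts that passed 2-fold at 1 or more time points, from lists chosen with results of these data known. Over all genes this share was 48.1%. Among electron carriers and coenzyme Q genes these were 2 of 9, among assembly factors 4 of 10, and among regulators of mitochondrial biogenesis 5 of 8. Of tricarboxylic acid cycle genes 7 of 13 passed it, among them FH, with -1.36 at 30 min, and CS, the entry enzyme of the cycle, with 1.25 at 4 h. Of import and carrier genes 6 of 14 passed it, of mitochondrial ribosomal proteins 24 of 68 (35.3%) and of cytosolic ribosomal proteins 35 of 84 (41.7%). The cytosolic ribosomal proteins had medians from -0.74 at 2 h to -0.20 at 16 h, and the mitochondrial ones from -0.32 at 30 min to -0.08 at 4 h. The 8.00% of the oxidative phosphorylation genes was the lowest of these shares, and differences between lists were not tested.

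The 5 further genes under the prefixes stayed under 2-fold where measured. ATP5S, a regulator of the ATP synthase, had -0.93 at 2 h and was not detected at 30 min, where it was at least 1.79-fold lower than in CTR. NDUFAF3 and SDHAF2 were above CTR at 30 min, by 0.39 and 0.42. The 14 names left out were 9 with no probe well above background outside the dark rectangle (COX4I2, COX5A, COX6A2, COX7B2, NDUFA4L2, NDUFA7, NDUFAF1, NDUFAF2 and NDUFAF4) and 5 whose probes all lay in it (NDUFB1, NDUFB2, NDUFB5, NDUFB8 and SDHAF1).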

How the data were processed

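Cy3-labelled RNA of 8 conditions was hybridised on bovine 4x44K arrays, 1 array per condition. The authors scanned them with a GenePix-4000B and deposited the processed intensity of each spot from Feature Extraction 9.5.3.1, corrected within the array for background and trends and not scaled between arrays. The authors also deposited log2 values, shifted to the 75th percentile and centred on each probe's median.

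Here log2 intensity minus the array's 75th percentile over non-control probes was used, with spots of 1 probe averaged and outlier-marked spots left out. The 30 min scanner intensities departed from the deposited log2 values, in the changes by a median of 2.33 over all probes and -3.20 (range -7.82 to 3.00) over the members' main probes. The 30 min level is therefore the CTR level plus the deposited difference, detected where it reached the highest limit found on the remaining 7 arrays. Probes in rows 216 to 330 and columns 30 to 59 were left out. A gene's main probe was well above background on most of these 7 arrays, ties going to the brightest. Genes at 2-fold were counted and no test was made. Array brightness at the 75th percentile was 48.6 to 423 and probes well above background made up 17.6% to 40.2%. Where 1 array was dim, a fold is a bound from the lowest detected signal on that array or the probe's own. The local shift is the median, over bright probes within 10 spots, of a value minus its median over the other arrays, taken where at least 5 were present. A position was called dark at -1 or lower, which held for 6.49% in CTR, 3.94% at 16 h and 0.472% at 24 h. Of the 77 symbols, 39 matched buffalo RefSeq. Every member but 1, which counts in the totals and is not reported here by itself, could be named, and levels on each array are given for those that passed 2-fold and for subunits the results turn on. The members and lists were chosen with earlier results of these data known.

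The alternatives were normexp background correction (offset 50, from mean and background intensities, limma 3.58.1), quantile normalization, the percentile over bright probes, the deposited log2 values, scanner intensities at 30 min, stricter and no filters, the median over probes, the dark rectangle kept and 16 h as the reference. Subtracting local shifts and leaving out dark positions were added after the data were seen. The calculation was tested on simulated data. Python 3.11.15 was used.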

Additional observations from a re-analysis of the deposited data

Results flagged for a closer look

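Member probes inside the dark rectangle of the CTR array were kept out of the results. Their 21 spots gave a median change from CTR of 2.06, 1.80, 1.85, 2.13, 1.79, 1.83 and 1.89 in the order of time, over the 16 or 17 probes well above background at each time. Outside the rectangle the medians lay between -0.32 and 0.08. These data were not used in any comparison. The values cover NDUFB1, NDUFB2, NDUFB5, NDUFB8 and SDHAF1, for which no other probe exists, so a level of these genes against CTR is not given.

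The COX4I1 probe with AATAAA, A_73_116537, passed 2-fold in opposite directions on 2 arrays of the same slide, with 1.99 at 2 h and -1.54 at 4 h. This difference between time points was not tested.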

How the results depend on the processing

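Of 275 values recomputed under the alternatives, 229 stayed within the error between spots or, for counts, within 1.5 times, and 46 moved. That error belongs to 1 probe and not to a median, so staying within it does not show that a median is stable. For example, the 16 h median of 0.08 became -0.10 with the median over probes and still counts among the 229. The cause of the moves was not tested. The counts of genes below stand without the share of all genes at 2-fold under the same processing, so they are not read as results about the members. Scanner intensities at 30 min gave a median of 2.71 with 30 genes higher and 0 lower, where all genes had a median of 2.48. These values cover only genes well above background on both arrays. Over the members' main probes the scanner change minus the deposited one had a median of -3.20. Normexp gave medians of 0.44, 0.67 and 0.11 at 2 h, 4 h and 12 h, with 11 and 15 genes higher at 2 h and 4 h, 1 lower at 2 h and 0 lower at 4 h, 12 h and 16 h. Without a filter on dim probes the median minus that of all genes was 0.80, 1.16, 1.47, 0.44 and -0.50 at 30 min, 2 h, 4 h, 12 h and 24 h. There, 4 genes were lower at 30 min and 9 at both 2 h and 4 h, and 1 was higher at 30 min, 2 h, 12 h and 24 h each, and 2 at 16 h. With the dark rectangle kept, 6 genes were higher at 30 min, 2 h and 24 h, 7 at 8 h, 12 h and 16 h, and 8 at 4 h. With the percentile over bright probes, 1 was higher at 30 min, 1 lower at 2 h and 0 lower at 12 h. The median over probes gave 1 higher at 30 min and 2 h and 0 at 4 h, and 4 lower at 30 min, 2, 0 and 5 at 4 h, 12 h and 16 h. Subtracting local shifts left 2 lower at 4 h and 0 at 12 h. At 16 h it left 1 lower beside 1 higher. Normexp and quantile normalization were not run at 30 min, which has no usable scanner intensities, and the slide as a block could not be fitted. No paired analysis was possible because each condition has 1 array. With 1 array per condition no replicate could be left out, and a change of a dim gene is only a bound.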
